A study of Mus musculus with 2 samples.

Results

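Endothelial cells of the mouse cervix were few in these data. Of 13981 cell barcodes that passed the cell filter, 87 met the rule for blood endothelium, 35 of 4760 in the control library and 52 of 9221 in the progesterone library. A barcode needed 200 or more detected genes and no more than 20% of its transcripts from mitochondria. The rule asked for at least 3 unique molecular identifiers (UMIs, each the trace of 1 captured transcript) of Pecam1, Cdh5, Kdr, Emcn, Flt1 and Egfl7 together. It also allowed at most 3 UMIs of the squamous keratins Krt5 and Krt14, at most 4 of the fibroblast genes Col1a1, Col1a2, Col3a1, Dcn and Lum, and at most 1 of the macrophage genes C1qa, C1qb and C1qc. These barcodes are called endothelial cells below. The 6 genes of the rule therefore describe the cells and support nothing.

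Both libraries came from female C57BL6/129 mice that were ovariectomised at 7 to 8 weeks of age, which removes the main source of sex hormones, and recovered for 2 weeks. Control mice then went untreated for 15 days. Progesterone mice were injected under the skin with estradiol (E2) in corn oil, 100 µg per day for 2 days, and then carried a 25 mg progesterone pellet made to last 21 days, which gives off about 1 mg per day. Cervix from 9 mice was pooled for each library, cut below the transition zone, freed of vagina and dissociated with a cold-active protease. With 1 library per group no test between the groups was possible, and progesterone cannot be told apart from the estradiol priming, the injections, the pellet or the pool of mice. All intervals are exact 95% intervals that cover counting error only.

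Endothelial cells line blood vessels and control the passage of fluid, solutes and leukocytes. Arteries, capillaries and veins differ in the genes of this lining. Capillary cells carry fatty acids and water, venous cells admit leukocytes and store clotting protein, and arterial cells respond to Notch signals and flow. Lymphatic endothelium is a separate lineage that shares Pecam1, Cdh5 and other genes with blood vessels. In the female reproductive tract vessels grow and become leaky under ovarian hormones.

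The endothelial cells held 43740 UMIs in the control library, with a median of 1187 UMIs and 664 genes per cell and a range of 520 to 3626 UMIs. In the progesterone library they held 151321 UMIs, with a median of 2274 UMIs and 1103 genes and a range of 632 to 11238 UMIs. The progesterone endothelial cells were thus the deeper ones, while all kept barcodes had medians of 3714 and 4215 UMIs. Levels are given as UMIs summed over the endothelial cells of a library per 1000000 of their UMIs (CPM). A floor of 3 UMIs per library stands at 68.6 CPM in the control and 19.8 CPM in the progesterone library. No barcode sequence was shared between endothelial cells of the libraries, against 13 shared among all kept barcodes.

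Endothelial cells made up 0.735% [0.513 to 1.02] of kept control barcodes and 0.564% [0.421 to 0.739] of kept progesterone barcodes, and these intervals overlapped. Among the 3862 control and 7999 progesterone barcodes with at least 1000 UMIs, a choice added after seeing the data, the shares were 0.544% [0.337 to 0.830] and 0.600% [0.443 to 0.795], in the other order. With these barcodes also thinned to 1000 UMIs before the rule was applied, the shares were 0.466% [0.276 to 0.736] and 0.488% [0.347 to 0.666]. No difference in the share of endothelial cells was detectable at this depth.

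The rule picked cells with further endothelial transcripts. Over 16 endothelial genes that it did not use, among them the tight junction gene Cldn5, the receptor phosphatase gene Ptprb and the adrenomedullin receptor partner Ramp2, every one of the 87 cells had at least 2 UMIs. The median was 8 UMIs in control and 15.5 in progesterone cells, and the highest cells had 51 and 83. Every endothelial cell had UMIs of at least 2 different genes of the rule, and 28 of 35 control and 45 of 52 progesterone cells had at least 3 different ones. Just inside the threshold, the 3 control and 4 progesterone cells with exactly 3 UMIs of the rule's genes had medians of 6 and 9.5 UMIs of the other endothelial genes. Just outside it, 6 control and 9 progesterone barcodes with 2 such UMIs had medians of 0 and 3. The keratin limit removed 3 control and 6 progesterone barcodes, the C1q limit 0 and 2, and the collagen limit none.

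**Figure D1:**
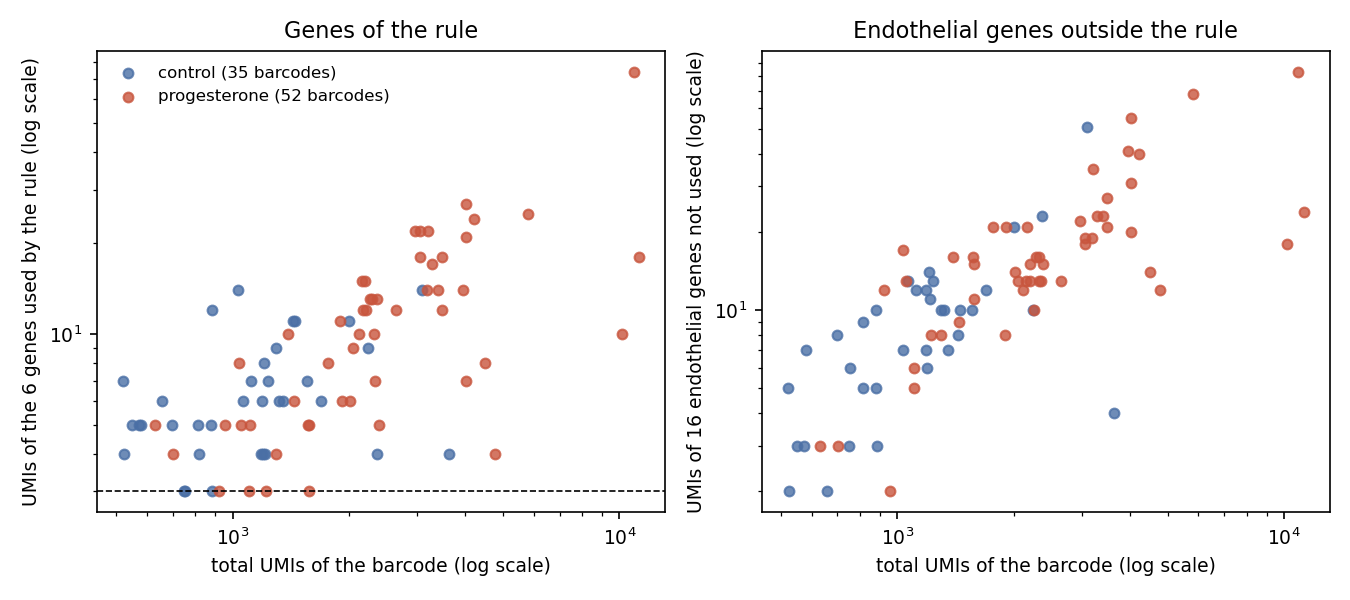
Each point is 1 endothelial cell, with its total UMIs on the x axis and its UMIs of the 6 genes of the rule (left, dashed line at the threshold of 3) or of 16 other endothelial genes (right) on the y axis, all on log scales. Deeper cells had more UMIs of both gene groups, and progesterone cells reached 74 UMIs of the rule's genes against 14 in control cells.

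The 6 genes of the rule, which are given as a description, all had a somewhat lower level in the progesterone library. Pecam1, the adhesion molecule at contacts between endothelial cells, had 63 UMIs in 24 control cells (1440 CPM) and 168 in 43 progesterone cells (1110 CPM). Egfl7, a secreted protein of the vessel wall, had 65 and 202 UMIs (1486 and 1335 CPM). Emcn, a mucin of veins and capillaries, had 31 and 106 UMIs (709 and 700.5 CPM). The VEGF receptor genes Flt1 and Kdr had 36 and 80 UMIs and 21 and 53 UMIs. Cdh5, the cadherin of endothelial junctions, had 14 and 33. Their ratios of progesterone over control ran from 0.642 for Flt1 to 0.988 for Emcn.

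RNA of other cell types was present in some of the cells. T and NK cell markers had 0 UMIs for 10 of 10 genes. Of the 10 mural genes, those of pericytes and smooth muscle, 6 were at 0, with Rgs5, Pdgfrb and Myh11 among them. Tagln, another mural gene, had 12 control and 25 progesterone UMIs. The summed mural level was 320 and 192 CPM in endothelial cells, higher than the 69.4 and 96.3 CPM in the other barcodes. Also at 0 were 6 of 10 fibroblast genes with Col1a1 and Col1a2 among them, and 7 of 10 macrophage genes with all of C1q. The summed squamous level was 709 CPM in control and 681 CPM in progesterone endothelial cells, against 33782 and 13007 CPM in the other barcodes. The rule itself limited Krt5, Krt14, Col1a1, Col1a2, Col3a1, Dcn, Lum and the C1q genes. Low values of these genes, and of the lists that hold them, therefore follow in part from the choice of cells. Genes of luminal epithelium, the columnar lining of the canal, differed most between the libraries: 23 UMIs (526 CPM) in control and 644 UMIs (4256 CPM) in progesterone endothelial cells. A single control cell held 21 of the 23, and 4 of the 52 progesterone cells held 611 of the 644. These 4 cells had 4503, 4760, 11238 and 10143 UMIs in all, with 1, 0, 2 and 2 UMIs of Vwf. The control cell had 3626 UMIs, the most in its library, with 2 of Vwf. All UMIs of these cells count in the totals behind the CPM of the endothelial cells. Neutrophil genes had 51 and 153 UMIs, and 1 progesterone cell held 78 of the 81 UMIs of S100a9. A doublet caller marked 1 control and 5 progesterone endothelial cells. These values stand beside the comparisons below, and their part in them was not tested unless a value without those cells is given.

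Most endothelial cells carried genes of veins and capillaries. Aqp1, a water channel, was read in 30 of 35 control and 41 of 52 progesterone cells, Vwf, the clotting protein stored by endothelium, in 28 and 41, and Plvap, a protein of the diaphragms that span endothelial pores, in 23 and 41. Lrg1, a secreted glycoprotein of venules, was read in 24 and 31 cells, and Slco2a1, a prostaglandin transporter, in 18 and 34. After thinning to 1000 UMIs, which left 21 control and 48 progesterone cells and left out 14 and 4, Aqp1 was present in 90.5% [69.6 to 98.8] and 75.0% [60.4 to 86.4] of cells. Vwf was present in 76.2% [52.8 to 91.8] and 60.4% [45.3 to 74.2] of thinned cells, against 80.0% and 78.8% before thinning. In squamous barcodes thinned the same way, with median depths of 5514 and 5074 UMIs, Vwf was found in 0 of 2861 and 0 of 5162, which allows shares of up to 0.105% and 0.0581%. Whether background RNA added to the Vwf reads of the endothelial cells was not tested.

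**Figure D2:**
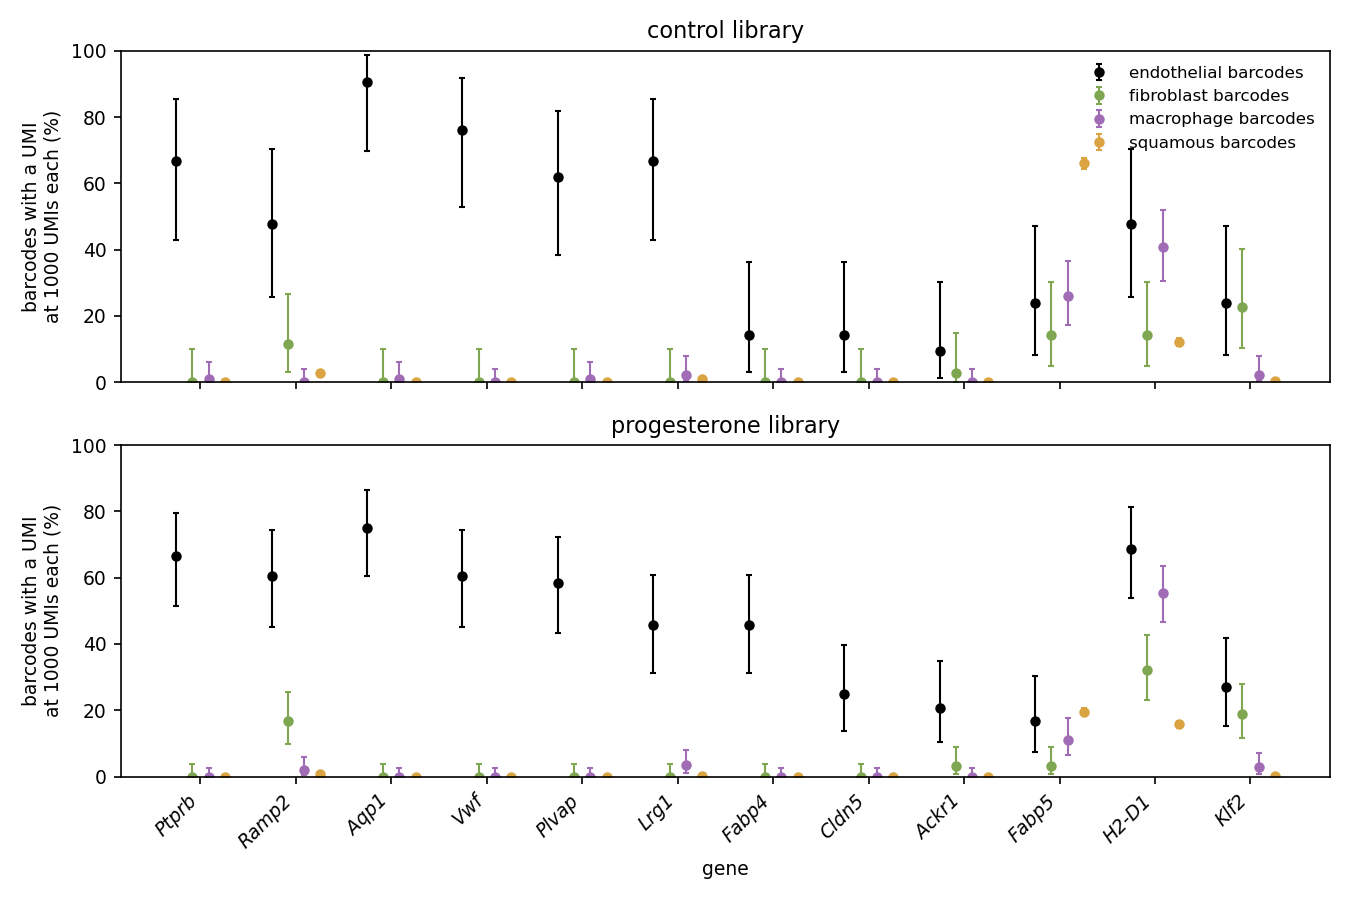
Points give the percentage of barcodes with a UMI of each gene (x axis) after thinning each barcode to 1000 UMIs, in the control (top) and progesterone (bottom) library, for endothelial, fibroblast, macrophage and squamous barcodes, and bars are exact 95% intervals. Vwf reached 76.2% and 60.4% in endothelial cells and 0% in the other 3 kinds, while Fabp5 was found in 66.0% and 19.6% of squamous barcodes.

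Several of the gene classes that set vessel types apart were nearly empty. Genes of classical capillaries were rare: Gpihbp1, which holds lipoprotein lipase on the vessel wall, had 0 control and 3 progesterone UMIs, the fatty acid transporter gene Cd36 had 1 and 1, Rgcc had 1 and 3, and Car4 and Aqp7 had none. Of the 208 control and 753 progesterone UMIs of the 10 capillary genes, nearly all were Aqp1 (167 and 393) and Fabp4 (38 and 345). Glycam1, Chst4, Fut7 and Madcam1, genes of the high venules of lymph nodes, were at 0. So were Apln, Cxcr4 and Adm, genes of sprouting tips, and Angpt2, which loosens vessels, had 3 and 1 UMIs. The 12 cell cycle genes had 1 UMI in the control and 7 in the progesterone library, Mki67 had none, and no cell had 2 or more.

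Genes of different vessel types lay partly in different cells. UMIs of the 15 arterial genes were found in 21 of 35 control and 37 of 52 progesterone cells. Cldn5, which seals endothelial tight junctions, was read in 18 of 87 cells, and 7 of those 18 had Aqp1 although 71 of all 87 cells had it. Likewise 7 of the 18 had Vwf, 7 had Plvap and 5 had Emcn. The 18 included 5 cells with the lymphatic chemokine Ccl21a, none of which had Vwf, so they were not 1 group. Sema3g, a secreted guidance protein of arteries, was read in 5 cells, and 5 of 5 had Cldn5 and 0 had Aqp1. By contrast 27 of 27 cells with the venular chemokine receptor gene Ackr1 also had Aqp1 and Vwf, 30 of 30 cells with Selp, the P-selectin gene, had Vwf, and 33 of 34 cells with Fabp4 had Aqp1. These counts describe cells of the same libraries and depth differed among the cells.

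**Figure D3:**
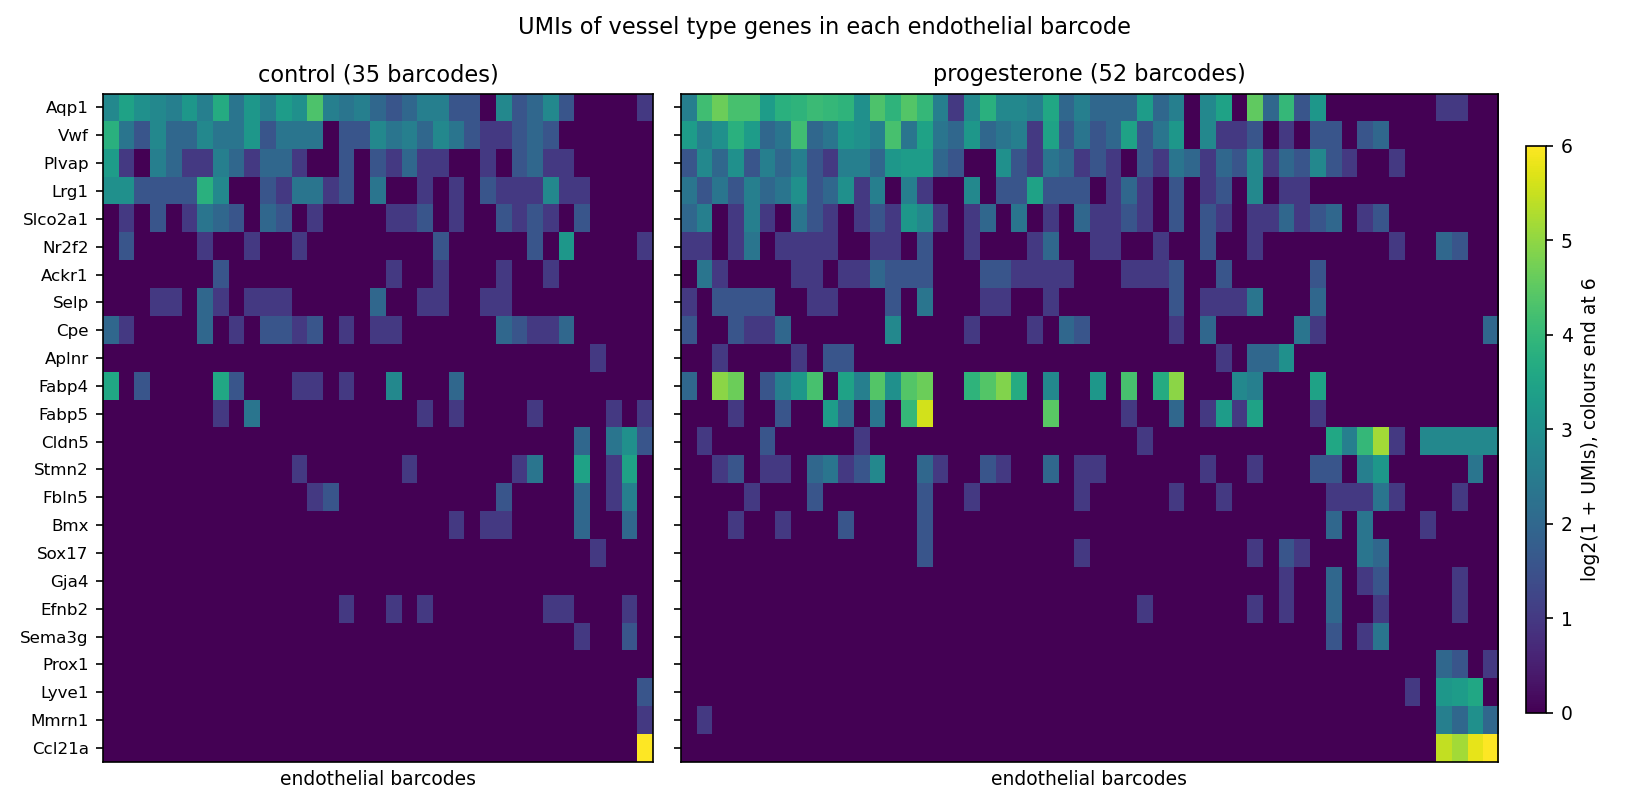
Columns are endothelial cells of the control (left) and progesterone (right) library, ordered by their summed level of Aqp1, Vwf, Plvap and Lrg1 with lymphatic cells last, rows are vessel type genes, and colour is log2 of 1 plus UMIs. Cldn5 lies mostly in cells at the right with little Aqp1 or Vwf, and Ccl21a lies in the last control cell and the last 4 progesterone cells.

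A split by 8 arterial genes (Gja4, Gja5, Sox17, Hey1, Bmx, Sema3g, Dkk2 and Efnb2) and 5 venous genes (Ackr1, Selp, Nr2f2, Aplnr and Ephb4), chosen after levels had been seen, gave 4 control and 4 progesterone cells with arterial UMIs only. Venous UMIs only were found in 14 and 31 cells, both kinds in 8 and 12, and neither in 9 and 5. In the arterial-only cells Cldn5 stood at 2025 and 4603 CPM (14 and 57 UMIs), against 111 and 137 CPM (2 and 11 UMIs) in the venous-only cells. The venous-only cells were mixed. They included 1 control and 1 progesterone cell with the lymphatic chemokine Ccl21a, at 66 and 43 UMIs. These cells held 2 of the 2 and 6 of the 11 Cldn5 UMIs. Aqp1 had 2 and 0 UMIs in arterial-only cells and stood at 4548 and 3401 CPM in venous-only cells. Lrg1 had 2 and 0 UMIs in the former and stood at 2330 and 922 CPM in the latter. Emcn had 0 UMIs in arterial-only cells of both libraries. These genes took no part in the split, but all cells had been chosen by endothelial genes and 4 cells per library carry little weight.

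Of the 87 barcodes, 5 went against the name blood endothelium. With at least 5 UMIs of 10 lymphatic genes, 1 control and 4 progesterone cells held all 66 and all 257 UMIs of Ccl21a, a chemokine of lymphatic vessels. They also held both control UMIs and 28 of 29 progesterone UMIs of the hyaluronan receptor gene Lyve1. Prox1, the transcription factor that sets lymphatic identity, had 0 control and 6 progesterone UMIs, all 6 in these cells. The same cells had 0 UMIs of Vwf, Lrg1, Plvap and Slco2a1. They were kept in the values below, since the rule admits them. Ccl21a had 1509 CPM in control and 1698 CPM in progesterone endothelial cells, which rests on 1 and 4 cells.

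Promoters of 4 genes that mark these cell groups are shown, picked after their values were seen: Lrg1 and Ackr1 for the venous cells, Aqp1 for the cells with venous and capillary genes, and Cldn5 for the cells with little Aqp1 or Vwf. Sequences are RefSeq's, build GRCm38.p6, windows of 300 bases placed by the start of transcription that RefSeq gives, each 5′ to 3′ on the gene's strand. Capitals mark AGGAAG or its reverse complement CTTCCT, letters that ETS factors, the family of Erg and Fli1, can bind. The Lrg1 window is chr17:56121897-56122196 (minus strand), Ackr1 chr1:173333454-173333753 (minus), Aqp1 chr6:55336049-55336348 (plus) and Cldn5 chr16:18776597-18776896 (plus). The Aqp1 window ends before the start that GENCODE gives for the gene.
Lrg1: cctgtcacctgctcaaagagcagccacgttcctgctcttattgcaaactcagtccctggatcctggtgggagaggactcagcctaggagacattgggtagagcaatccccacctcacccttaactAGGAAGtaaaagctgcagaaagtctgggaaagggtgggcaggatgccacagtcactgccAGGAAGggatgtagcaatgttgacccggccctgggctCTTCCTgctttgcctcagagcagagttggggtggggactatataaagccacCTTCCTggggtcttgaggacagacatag
Ackr1: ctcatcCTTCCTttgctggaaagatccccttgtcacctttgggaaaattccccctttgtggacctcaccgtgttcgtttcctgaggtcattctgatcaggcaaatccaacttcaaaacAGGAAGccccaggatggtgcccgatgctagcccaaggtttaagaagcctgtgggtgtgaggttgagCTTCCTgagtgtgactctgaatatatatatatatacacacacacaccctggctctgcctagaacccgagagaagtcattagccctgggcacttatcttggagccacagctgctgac
Aqp1: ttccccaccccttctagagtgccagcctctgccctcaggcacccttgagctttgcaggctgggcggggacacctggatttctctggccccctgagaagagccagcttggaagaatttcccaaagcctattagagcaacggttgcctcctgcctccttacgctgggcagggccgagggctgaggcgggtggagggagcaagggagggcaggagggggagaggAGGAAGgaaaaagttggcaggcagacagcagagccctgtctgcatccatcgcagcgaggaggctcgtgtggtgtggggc
Cldn5: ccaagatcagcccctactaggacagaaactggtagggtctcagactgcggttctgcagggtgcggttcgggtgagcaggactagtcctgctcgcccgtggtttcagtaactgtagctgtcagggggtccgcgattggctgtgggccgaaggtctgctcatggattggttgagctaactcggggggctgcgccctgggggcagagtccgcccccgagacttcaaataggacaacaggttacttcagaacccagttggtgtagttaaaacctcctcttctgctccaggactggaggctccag
The windows held 4, 3, 1 and 0 matches on either strand. Of all 32851 promoter windows of 300 bases, 11613 (35.4%) held these letters. For the venous list 8 of 14 genes had a window and 6 of the 8 windows held a match, and for the arterial list 5 of 14 windows did. Windows of the rule's genes held a match in 4 of 6, and those of the endothelial genes outside the rule in 5 of 10. TGTTCT or AGAACA, the half-site that steroid receptors of the progesterone receptor group can bind, was in 0 of the 8 venous windows and 2 of the 14 arterial ones, against 6233 (19.0%) of all windows. A match is a description of letters, and its absence says only that they were not in this window.

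Between the libraries, venous genes stood lower in the progesterone endothelial cells. Summed over 14 genes the venous level was 8413 CPM in control and 4870 CPM in progesterone cells, a ratio of 0.579 [0.510 to 0.658]. The ratio of the same genes in all other barcodes was 1.19. Among 1519 genes with at least 20 UMIs over the endothelial cells of both libraries, 8.82% lay past 2-fold higher and 5.99% past 2-fold lower in the progesterone library, with a median log2 ratio of -0.05. Of 10 venous genes with that many UMIs, 3 lay past 2-fold lower and 1 past 2-fold higher, with a median log2 ratio of -0.81. The summed venous ratio was below 1 under every alternative tried, from 0.477 to 0.724.

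Within the venous list Lrg1 and Vwf carried most of this difference. Lrg1 had 74 UMIs (1692 CPM) in control and 99 UMIs (654 CPM) in progesterone cells, a ratio of 0.387 [0.283 to 0.530]. Its share of thinned cells was 66.7% [43.0 to 85.4] and 45.8% [31.4 to 60.8], with overlapping intervals. Vwf had 110 UMIs (2515 CPM) and 219 UMIs (1447 CPM), a ratio of 0.575 [0.456 to 0.730]. Cpe, a carboxypeptidase that trims peptide hormones, had 28 and 34 UMIs (640 and 225 CPM) and a ratio of 0.351 [0.207 to 0.601]. Nr2f2, the nuclear receptor of venous identity, had 18 and 32 UMIs and a ratio of 0.514 [0.280 to 0.972]. Csrp2, which binds the cytoskeleton, had 18 and 25 and a ratio of 0.401 [0.210 to 0.781].

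Some venous genes were lower with an interval that reached past 1, and some went the other way. Plvap had 54 and 139 UMIs (1235 and 919 CPM) and a ratio of 0.744 [0.540 to 1.04], and the intervals of Slco2a1 (0.696 [0.455 to 1.09]) and Selp (0.578 [0.308 to 1.13]) also reached past 1. Ackr1 was the other way, with 6 UMIs in 5 control cells and 35 UMIs in 22 progesterone cells, but its interval was wide, 1.69 [0.702 to 4.90]. Aplnr, the apelin receptor gene, had 1 and 20 UMIs, a ratio of 5.78 [0.925 to 239.6]. Ephb4 had 3 and 13 UMIs (68.6 and 85.9 CPM) and Ch25h 0 and 1. Sele, the E-selectin gene, was at 0 in both. Lrg1 in all other barcodes stood at 32.4 and 16.2 CPM, also lower in the progesterone library.

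**Figure D4:**
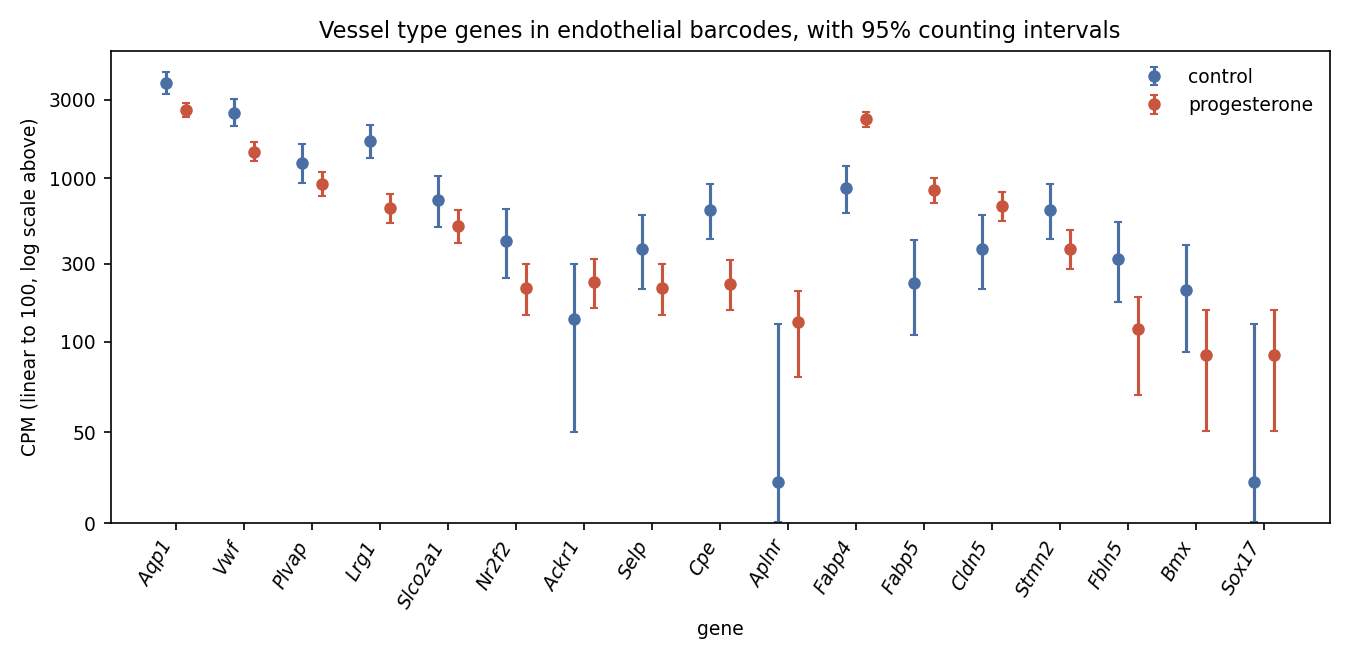
Points give the CPM of each gene (x axis) in the summed endothelial cells of the control (blue) and progesterone (red) library, on an axis that is linear up to 100 CPM and logarithmic above, and bars are exact 95% Poisson intervals. Aqp1, Vwf, Lrg1 and Cpe stood lower and Fabp4 and Fabp5 higher in the progesterone library, with intervals that did not overlap.

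Arterial genes were also lower in sum, 1738 CPM in control and 978 CPM in progesterone cells, a ratio of 0.563 [0.424 to 0.752]. This list rests on few UMIs, 76 and 148, and single control cells held 22 and 19 of the 76. Stmn2, a regulator of microtubules, had 28 and 56 UMIs (640 and 370 CPM, ratio 0.578 [0.361 to 0.945]), and 3 control cells held 24 of the 28. In the split above, arterial-only cells held 21 of the 28 control UMIs and venous-only cells 6. Of the 56 progesterone UMIs they held 10 and 27. As a mean of the cells' CPM the log2 ratio of Stmn2 was -0.05, against -0.80. Fbln5, an elastic fibre protein, had 14 and 18 UMIs (320 and 119 CPM, ratio 0.372 [0.175 to 0.807]), and the kinase gene Bmx had 9 and 14 (206 and 92.5 CPM, ratio 0.450 [0.181 to 1.18]). Cxcl12, a chemokine that attracts leukocytes, had 9 and 8. Sox17, a transcription factor of arteries, had 1 and 14 UMIs, and the connexin gene Gja4 had 0 and 8. Of 3 arterial genes with at least 20 UMIs, 2 lay past 2-fold lower, against 5.99% of all 1519 genes. Without cells that had any keratin, collagen group or C1q UMI, the arterial ratio was 0.826 [0.577 to 1.20]. On cells picked after thinning it was 0.814 [0.565 to 1.20], and both intervals reached past 1.

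Cldn5, in contrast, had 16 UMIs in 4 control and 102 UMIs in 14 progesterone cells, 366 and 674 CPM, a ratio of 1.84 [1.08 to 3.35]. A single progesterone cell held 35 of the 102. The shares of thinned cells were 14.3% [3.05 to 36.3] and 25.0% [13.6 to 39.6]. Cells with at least 2 lymphatic UMIs held 2 control and 25 progesterone UMIs of Cldn5. Without them Cldn5 had 14 UMIs in 3 cells and 77 UMIs in 9 cells, 335 and 564 CPM, and its log2 ratio was 0.71 [-0.08 to 1.69], an interval that reached below 0. Other junction genes lay on both sides of 1. Esam, an adhesion molecule of tight junctions, had a ratio of 1.14 [0.637 to 2.16], its relative Jam2 1.5 [0.777 to 3.17], and Afdn, which ties junctions to actin, 0.426 [0.230 to 0.807]. The summed junction level was 1.06 times the control [0.843 to 1.35]. Of 6 junction genes with at least 20 UMIs, 1 lay past 2-fold lower and 0 higher, against 5.99% and 8.82% of all 1519 genes.

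Fatty acid binding genes stood higher in the progesterone endothelial cells. Fabp4, a carrier of fatty acids inside the cell, had 38 UMIs in 9 of 35 control cells and 345 UMIs in 25 of 52 progesterone cells. Its level was 869 and 2280 CPM, a ratio of 2.62 [1.87 to 3.77], while all other barcodes held 0.718 and 1.34 CPM. After thinning, 3 of 21 control cells (14.3% [3.05 to 36.3]) and 22 of 48 progesterone cells (45.8% [31.4 to 60.8]) had a UMI. The top 3 cells held 25.5% of the progesterone UMIs and 73.7% of the control UMIs. On the log2 scale the ratio was 1.38, and between 1.18 and 1.64 under the alternatives tried. No Fabp4 UMI lay in the 2 control and 6 progesterone cells with at least 2 lymphatic UMIs, and 2 of the 34 cells with Fabp4 had Cldn5.

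Fabp5, a related carrier, had 10 control UMIs (229 CPM) and 128 progesterone UMIs (846 CPM), a ratio of 3.70 [1.95 to 7.90]. Here 1 progesterone cell held 47 UMIs and the top 3 cells held 64.8%. The shares of thinned cells ran the other way, 23.8% in control and 16.7% in progesterone cells, with overlapping intervals. Fabp5 was also abundant outside endothelium, at 5061 CPM in the other control barcodes and 224 CPM in the other progesterone barcodes. Of the 22 cells with Fabp5, 14 had Fabp4.

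The caveolae and lipid list as a whole had a ratio of 1.36 [1.17 to 1.60]. In it 2 of 6 genes with at least 20 UMIs, Fabp4 and Fabp5, lay past 2-fold higher and 0 lower. Among all 1519 genes 8.82% lay past 2-fold higher and 5.99% lower. Cav1, the coat protein of caveolae, had 18 and 99 UMIs and a ratio of 1.59 [0.956 to 2.79]. Its partners Cavin1 and Cavin2 had ratios of 0.841 [0.511 to 1.43] and 0.841 [0.615 to 1.16]. Cavin2 was among the 10 genes with the highest level over other barcodes, at 1257 and 1057 CPM against 1.87 and 1.34 CPM elsewhere. The lipase gene Lpl had no UMI.

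**Figure D5:**
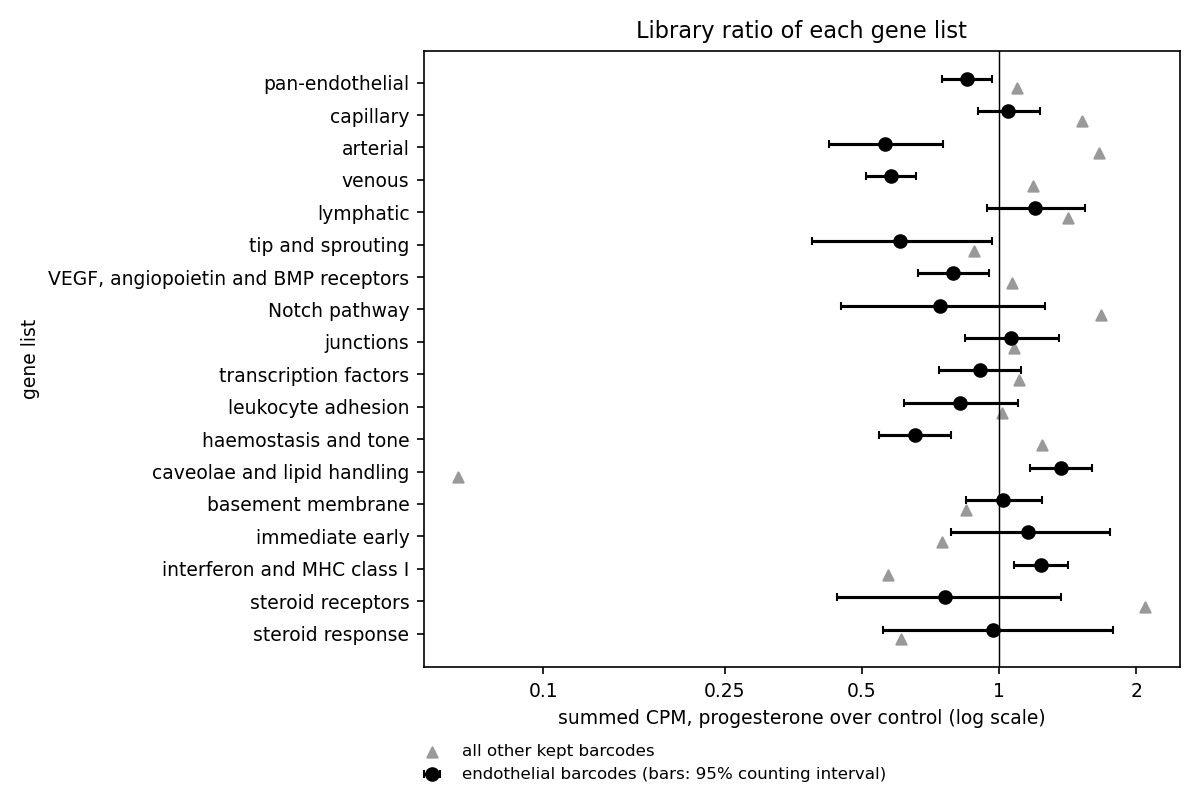
Black points give the ratio of summed CPM, progesterone over control, for each gene list (y axis) in endothelial cells with exact 95% counting intervals, and grey triangles give the same ratio in all other kept barcodes, on a log axis. In endothelial cells the intervals of the venous, arterial, haemostasis, sprouting, growth factor receptor and pan-endothelial lists lay below 1. Those of caveolae and lipid handling and of interferon and MHC class I lay above 1.

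Some interferon and MHC class I genes stood higher in the progesterone library. Of 7 such genes with at least 20 UMIs, H2-Q7, Iigp1 and Gbp4 lay past 2-fold higher and 0 lay past 2-fold lower. Over all 1519 genes the shares were 8.82% higher and 5.99% lower. The median log2 ratio of the 7 was 0.90, against -0.05 over all genes. H2-D1, a classical MHC class I heavy chain, had 31 UMIs in 19 control cells (709 CPM) and 203 UMIs in 45 progesterone cells (1342 CPM), a ratio of 1.89 [1.29 to 2.86]. B2m, its light chain, had 18 and 117 UMIs and a ratio of 1.88 [1.14 to 3.28], and H2-Q7 had 6 and 50 and a ratio of 2.41 [1.03 to 6.87]. H2-K1 had 57 and 233 UMIs and a ratio of 1.18 [0.881 to 1.61]. The interferon-induced GTPase genes Iigp1 and Gbp4 had 3 and 30 UMIs and 2 and 24 UMIs, with lower bounds of 0.899 and 0.861. Ifitm3, an antiviral membrane protein and the most abundant gene of the list, had 145 and 430 UMIs and a ratio of 0.857 [0.709 to 1.04].

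H2-D1 also stood higher elsewhere, at 149 and 244 CPM in all other barcodes. The shares of thinned endothelial cells with H2-D1 were 47.6% [25.7 to 70.2] and 68.8% [53.7 to 81.3], with overlapping intervals. The summed list had a ratio of 1.23 [1.08 to 1.42] in endothelial cells, 1.03 in fibroblast, 1.35 in macrophage and 0.542 in squamous barcodes. Without cells that had at least 2 luminal or at least 2 neutrophil UMIs, a choice made after seeing the data, the ratio in endothelial cells was 1.48. This left 30 control and 42 progesterone cells, and cells with only 1 luminal or neutrophil UMI stayed in.

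Receptors for growth factors of vessels were slightly lower in sum, with a ratio of 0.792 [0.663 to 0.95], which became 1.04 when 2 UMIs of the rule's genes were enough. Of 10 such genes with at least 20 UMIs, 2 lay past 2-fold lower and 0 higher, against 5.99% and 8.82% of all 1519 genes. Nrp1, a coreceptor for VEGF and semaphorins, had 14 UMIs in each library, 320 and 92.5 CPM, a ratio of 0.289 [0.128 to 0.654]. Bmpr2, the type II BMP receptor, had 19 and 32 UMIs and a ratio of 0.487 [0.268 to 0.909]. Eng, a TGF-beta coreceptor, had 31 and 81 (ratio 0.755 [0.494 to 1.18]), Ramp2, the partner of the adrenomedullin receptor, 36 and 137 (1.10 [0.757 to 1.64]), and Tek, the angiopoietin receptor, 9 and 38 (1.22 [0.580 to 2.87]). In the Notch pathway Notch1 had 7 and 20 UMIs, and the ligand gene Dll4 2 and 1.

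The 16 endothelial genes outside the rule had a ratio of 0.849 [0.750 to 0.962], and 1.07 when 2 UMIs of the rule's genes were enough. Of 13 with at least 20 UMIs none lay past 2-fold, against 8.82% higher and 5.99% lower among all 1519 genes. Ptprb, the phosphatase that restrains the angiopoietin receptor and junctions, had 85 and 151 UMIs (1943 and 998 CPM) and a ratio of 0.513 [0.391 to 0.678]. The shares of thinned cells with Ptprb were 66.7% in both libraries. Mmrn2, a matrix protein of vessels, had a ratio of 0.562 [0.373 to 0.860], and Clec14a, a lectin of endothelium, had 24 and 63 UMIs and a ratio of 0.759 [0.467 to 1.27].

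Transcription factors of endothelium differed gene by gene. Epas1, the hypoxia-inducible factor 2 alpha subunit, had 37 and 57 UMIs (846 and 377 CPM), a ratio of 0.445 [0.289 to 0.693]. Foxo1, which restrains endothelial growth, had 15 and 16 UMIs and a ratio of 0.308 [0.143 to 0.670]. Tcf4, a basic helix-loop-helix factor, had 10 UMIs in 8 control cells and 80 UMIs in 36 progesterone cells, a ratio of 2.31 [1.19 to 5.01]. Klf2 and Klf4, factors induced by blood flow, had ratios of 1.98 [0.834 to 5.69] and 0.597 [0.313 to 1.19]. Of 9 such genes with at least 20 UMIs, 1 lay past 2-fold higher and 2 lower, against 8.82% and 5.99% of all 1519 genes. The ETS factor genes Erg and Fli1 had 1 and 3 UMIs and 4 and 13 UMIs.

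Genes of clotting and vessel tone had a summed ratio of 0.652 [0.546 to 0.782], of which Vwf, also on the venous list, made up most. Entpd1, which breaks down ATP and ADP, had 18 and 35 UMIs (ratio 0.562 [0.310 to 1.05]), and Edn1, the precursor of the vasoconstrictor endothelin-1, had 13 and 26 (0.578 [0.287 to 1.23]). Ece1, which cuts that precursor, had 12 and 46 (1.11 [0.578 to 2.30]), and the nitric oxide synthase gene Nos3 had 5 and 7. None of 6 genes with at least 20 UMIs lay past 2-fold, against 8.82% higher and 5.99% lower among all 1519 genes. Leukocyte adhesion genes had a ratio of 0.820 [0.617 to 1.10]. Cd34 had 21 and 57 UMIs, Icam2 12 and 43, Icam1 4 and 12 and Vcam1 8 and 11.

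Basement membrane genes had a ratio of 1.02 [0.845 to 1.24], which became 1.58 [1.22 to 2.06] without cells that had any keratin, collagen group or C1q UMI and 1.41 [1.10 to 1.84] with the rule applied to thinned cells. Sparc, a matrix binding protein, had 54 and 199 UMIs (ratio 1.07 [0.785 to 1.47]), its relative Sparcl1 30 and 152 (1.46 [0.985 to 2.25]), and the collagen IV genes Col4a1 and Col4a2 12 and 38 and 11 and 18. The last 2 made up most of the sprouting list, whose ratio of 0.606 [0.389 to 0.962] became 1.45 without cells that had any keratin, collagen group or C1q UMI. That list had 31 and 65 UMIs, and 1 cell in each library held 13 and 15 of them. Immediate early genes, which dissociation can induce, had 33 and 132 UMIs and a ratio of 1.16 [0.785 to 1.75], which became 0.634 [0.490 to 0.824] when 2 UMIs of the rule's genes were enough. Fos, Fosb and Atf3 were at 0. Jun had 4 and 34 UMIs and a ratio of 2.46 [0.876 to 9.53].

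Few transcripts of the progesterone receptor gene Pgr were read in endothelial cells: 0 UMIs in the control and 2 UMIs in 2 cells in the progesterone library. After thinning Pgr was found in 0 of 21 and 0 of 48 cells, which allows shares of cells with a UMI of up to 14.3% and 6.25%. Pgr was found in 2.90% and 5.50% of squamous barcodes thinned alike, and a difference from these shares was not detectable. Esr1, the estrogen receptor alpha gene, had 2 and 9 UMIs, and Nr3c1, the glucocorticoid receptor gene, 9 and 22. Nr3c1 was read in 23.8% [8.22 to 47.2] and 14.6% [6.07 to 27.8] of thinned endothelial cells. Genes that steroid receptors induce in many tissues were sparse too. Klf9 had 7 and 29 UMIs and a ratio of 1.20 [0.513 to 3.24], Sgk1 had 4 and 13, Tsc22d3 0 and 9, and Fkbp5 1 and 1.

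Over all genes, lists included, the endothelial-enriched genes that stood highest in the progesterone library, ranked by whichever end of the interval was closer to 1, were Txnip, Fabp5, Fabp4, Ptbp3, Tmsb10, Fgl2, H2-D1 and Tspan13. Enrichment was asked for only in the library where a gene stood higher, and in the control library Fabp5 and Ptbp3 stood lower in endothelial cells than in other barcodes (229 against 5061 CPM and 45.7 against 173 CPM). For Tmsb10 and Txnip the ratio to other barcodes in the control library had lower bounds of 0.637 and 0.951. Txnip, which binds thioredoxin and limits glucose uptake, had 10 UMIs in 9 control cells and 133 in 34 progesterone cells, 229 and 879 CPM, a ratio of 3.84 [2.03 to 8.20]. It also stood higher in all other barcodes, at 115 and 342 CPM. Tmsb10, which binds actin monomers, had 16 and 127 UMIs and a ratio of 2.29 [1.36 to 4.14]. Fgl2, a fibrinogen-like protein, had 9 and 82 UMIs and a ratio of 2.63 [1.32 to 5.96], with 11.5 and 10.5 CPM elsewhere. Ptbp3, an RNA-binding splicing regulator, had 2 and 38 UMIs (5.49 [1.42 to 47.0]), and Tspan13, a tetraspanin, 5 and 54 (3.12 [1.26 to 10.0]).

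The genes lowest by the same rule included Lrg1, Clu, Pkp4, Cpe, Eln, Myh9 and Ptprb. Clu, an extracellular chaperone, had 59 and 81 UMIs (1349 and 535 CPM, ratio 0.397 [0.280 to 0.565]), and in all other barcodes it stood at 121 and 62.7 CPM. Eln, the elastin gene, had 41 and 56 UMIs (937 and 370 CPM, ratio 0.395 [0.259 to 0.606]). Myh9, a non-muscle myosin heavy chain, had 50 and 78 UMIs (ratio 0.451 [0.312 to 0.657]), and Pkp4, a junction plaque protein, 24 and 27 (0.325 [0.181 to 0.589]). The rule chose these genes for their difference, so the ratios are descriptions, and each kept its direction under the 12 alternatives tried. Without cells that had at least 2 luminal or at least 2 neutrophil UMIs the log2 ratio of Tspan13 was 0.87, against 1.52 in the main values. As a mean of the cells' CPM that of Ptbp3 was 3.56, against 2.15.

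Among genes that were not enriched in endothelial cells, Tff1, Muc5b and Agr2, secretory genes of luminal epithelium, had 0 control UMIs and 316, 298 and 84 progesterone UMIs. Of the Muc5b UMIs, 130 lay in 1 cell and 94.0% in 3 cells. In all other barcodes Muc5b stood at 116 CPM in the control and 2020.5 CPM in the progesterone library. Arpc2, an actin nucleation subunit, and Anxa2, a membrane-binding annexin, were lower, with ratios of 0.478 [0.287 to 0.810] and 0.552 [0.379 to 0.814]. Gm42418, which overlaps ribosomal RNA, took 3102 control and 8522 progesterone UMIs.

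The genes other than those of the rule with the highest endothelial level relative to all other barcodes were Aqp1, Vwf, Ptprb, Plvap, Clec14a, Fabp4, Ccl21a, Cytl1, Cavin2 and Stmn2. All 10 follow from choosing endothelial cells and are given for their levels. Aqp1, at chr6:55336432-55348555 on the plus strand, was the most abundant, with 167 UMIs (3818 CPM) in control and 393 UMIs (2597 CPM) in progesterone cells, a ratio of 0.680 [0.566 to 0.820]. Vwf lies at chr6:125546774-125686679 (plus), Lrg1 at chr17:56119678-56122001 (minus) and Fabp4 at chr3:10204088-10208576 (minus), all protein-coding genes of GRCm38. Cytl1, a secreted cytokine-like protein, had 30 UMIs in 4 control and 95 UMIs in 13 progesterone cells, a ratio of 0.915 [0.602 to 1.43]. Its log2 ratio of -0.14 kept its sign in 5 of 12 alternatives and reached 0.98 without cells that had any keratin, collagen group or C1q UMI.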

How the data were processed

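The authors' matrices give unnormalised UMI counts (whole numbers) for each gene in each barcode, made with Cell Ranger 3.0.2 and build mm10, per the submitters' processing notes. Gene and barcode lists, deposited by the authors, name the rows and columns. Of 31053 genes, 30934 identifiers are in the GENCODE release used for positions, and symbols with several identifiers were summed. Doublets were not removed in the main values, and Scrublet in scanpy was an alternative.

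UMIs were summed over endothelial barcodes per library and scaled to 1000000. Levels have exact Poisson, shares Clopper-Pearson and ratios conditional binomial 95% intervals. Comparison barcodes had under 3 UMIs of the rule's genes and at least 10 of Krt5 and Krt14 (squamous), 10 of the collagen group (fibroblast) or 3 of C1q (macrophage). Shares were taken after thinning to 1000 UMIs with random seed 1. Log2 ratios had 0.5 added to both sums, and gene counts past 2-fold used genes with at least 20 UMIs. A count of 0 was read against a floor of 3 counts.

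The cells and gene lists were chosen with earlier results of these data known. Genes were named by a fixed rule: the genes of the cell rule, the 3 most abundant of each list, the 8 highest and 8 lowest in the progesterone library, ranked by the end of the interval closer to 1, among endothelial-enriched genes with at least 20 UMIs, the 3 highest and lowest without enrichment, and the 10 with the highest level over other barcodes. Further list genes are given with values, and some genes that the rule named are not reported here. The scripts were tested on simulated data. Tools were Python 3.11.15, numpy 2.4.6, pandas 2.3.3, scipy 1.17.1, scanpy 1.11.5 and matplotlib 3.10.9.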

Additional observations from a re-analysis of the deposited data

How the results depend on the processing

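No paired analysis was possible because each group had 1 library, and leaving one out leaves no comparison. There was 1 library per group, with 35 and 52 endothelial cells, of which the progesterone cells were deeper, and single genes under about 20 UMIs carry wide intervals. Leaving out cells with at least 2 luminal or at least 2 neutrophil UMIs, and taking the share over barcodes of at least 1000 UMIs without thinning, were chosen after seeing the data. The other alternatives were listed earlier. Asking for 2 different genes of the rule left the same numbers of cells.

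With 2 UMIs of the rule's genes enough (41 and 61 cells), the summed ratios were 0.984 for the rule's genes, 1.07 for the endothelial genes outside the rule and 1.04 for the growth factor receptors (both now above 1), 1.27 capillary, 0.724 venous, 1.67 lymphatic, 1.62 caveolae and lipid, 0.634 immediate early and 1.54 interferon and MHC class I, Krt13 had a log2 ratio of -0.093, and 207 genes lay past 2-fold higher, against 134 in the main values. In the main values the ratios were 1.05 [0.896 to 1.23] capillary and 1.20 [0.941 to 1.54] lymphatic, and Krt13 had a log2 ratio of 4.23. With 5 UMIs required the lymphatic ratio was 0.746. With cells picked after thinning, the control share was 0.466% and the ratios were 0.962 for the rule's genes, 0.814 arterial, 0.867 lymphatic, 1.41 basement membrane and 1.53 interferon and MHC class I, with Krt13 at -0.44 and 81 genes higher. Without called doublets 84 genes lay higher.

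Without cells that had any keratin, collagen group or C1q UMI, the shares were 0.504% and 0.325%, and the ratios 0.826 arterial, 0.477 venous, 0.755 lymphatic, 1.45 sprouting (turned around), 1.15 caveolae and lipid and 1.58 basement membrane, with 73 genes higher and 54 lower, against 134 and 91. Without lymphatic cells the lymphatic ratio was 0.613 and the log2 ratio of Lyve1 -0.12. Without cells with at least 2 luminal or at least 2 neutrophil UMIs the interferon ratio was 1.48, with 71 genes higher and 55 lower. As a mean of the cells' CPM the lymphatic ratio was 1.59 and Gm42418 had a log2 ratio of 0.11. With no minimum of UMIs 1698 genes lay higher and 2772 lower, and the median log2 ratios were -0.69 arterial and -0.15 immediate early (0.0168 with 1 added to the sums). The share of cells with arterial UMIs in the progesterone library was 23.1% at 500, 70.6% at 2000 UMIs and 71.2% unthinned, against 47.9% in the main values. Capillary and venous shares in the control were 75.0% and 75.0% at 2000 UMIs, against 95.2% for both in the main values. These rest on only 4 cells, and each interval ran from 19.4% to 99.4%. For the values that moved or turned around the cause was not tested.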
